A study of Mus musculus with 4 samples.

Results

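The Ebf, Insm and Myt1 families are 3 groups of transcription factors that act in newly formed neurons. They were followed as 9 genes, Ebf1, Ebf2, Ebf3, Ebf4, Insm1, Insm2, Myt1, Myt1l and St18, chosen by symbol from the 25239 symbols in the gene tables. All 9 were found in every library, each on 1 row, and all 9 were among the 15049 genes that reached 1 TPM (a transcript level scaled for gene length and for the library's total) in at least 1 library. RNA came from the mouse cochleovestibular ganglion, the cluster of young auditory and vestibular neurons next to the developing inner ear, of embryos at day 11.5. There was 1 library for each of the genotype labels Isl1CKO, Pou4f1KO, DKO and control. They were read as a conditional deletion of Isl1, a deletion of Pou4f1, the deletion of both and a control. The Cre driver, the strain, the number of pooled embryos and the exact alleles of the control are not given in the sources used here. With 1 library per genotype there is no replicate spread. No test was therefore made, and the words higher and lower describe these 4 libraries. Nothing in the sources says how many animals stand behind a library.

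EBF proteins are helix-loop-helix DNA-binding factors that, in frog and mouse embryos, act after the proneural basic helix-loop-helix (bHLH) factors, when a precursor leaves the cell cycle and becomes a neuron. INSM1 and INSM2 are zinc-finger repressors of newborn neurons and endocrine cells, and INSM1 works through the histone demethylase LSD1 (Kdm1a) and CoREST. MYT1, MYT1L and ST18 share CCHHC zinc fingers, and MYT1 and MYT1L are known to repress Notch target genes and other genes that oppose a neuronal fate. In the ear, INSM1 is best known for its part in outer hair cells and EBF1 for the cochlear sensory epithelium. ISL1 is a LIM-homeodomain factor and POU4F1 a POU-homeodomain factor, and the comparisons ask what each does in differentiating neurons of the inner ear.

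The libraries held 13.6 to 16.6 gigabases of aligned sequence, and 1 TPM corresponded to a mean coverage of 4.95 to 5.93. Pou4f1 stood at 16.6 TPM in Pou4f1KO and 14.6 TPM in the library labelled DKO, against 146 TPM in control. Isl1 went against its labels, at 854 TPM in the library labelled Isl1CKO and 579 TPM in the library labelled DKO, against 450 TPM in control. These values cover the gene as a whole and may miss the deleted part, so they do not check the Isl1 label, and each direction tied to it rests on the label alone. All 12 otic neuron markers and all 30 pan-neuronal genes were measured above 0 in every library. Of the 12 otic neuron markers, 1 was at least 2-fold lower than control in the library labelled Isl1CKO (Gata3), 2 were in Pou4f1KO (Pou4f1 and Runx1) and 5 were in the library labelled DKO, and 0 were higher. The 5 were Pou4f1, Gata3 (log2 ratio −1.92), Runx1 (−1.78), Ntrk2 (−1.37) and Neurog1 (−1.16). Both targeted genes, Isl1 and Pou4f1, are on this list, so Pou4f1 in the counts for Pou4f1KO and the library labelled DKO only restates the genotype label. Lower by 2-fold in the same 3 comparisons were 0.618%, 1.73% and 2.34% of all compared genes. Their part in the results below was not tested. In bulk tissue, fewer cells of a type and less RNA per cell cannot be told apart.

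Insm2 was the gene of the 9 that differed most between libraries, and it followed the Isl1 label. It stood at 0.228 TPM in the library labelled Isl1CKO, 12.6 TPM in Pou4f1KO, 0.429 TPM in the library labelled DKO and 4.09 TPM in control. Both libraries with the Isl1 label were below 1 TPM, and both libraries without it were above. The span of its log2(TPM + 1) values, 3.47, ranked 10th among the 15049 compared genes. The other 8 genes spanned 0.22 to 0.75 on this scale, and their highest library was 1.17 to 1.70 times their lowest. Their order by TPM in control ran Ebf1, Ebf3, Insm1, Myt1, Ebf2, St18, Ebf4 and Myt1l, with Insm2 last. Insm1 stood above Ebf3 in the other 3 libraries, and Insm2 stood above Ebf4 and Myt1l in Pou4f1KO. Without replicates, close neighbours in this order such as Ebf3 and Insm1 in control (209 and 205 TPM) cannot be ranked. The order also depends on the measure. By mean coverage in control, Insm2 (24.3) stood above Myt1l (6.81), and Ebf2 (298) stood above Myt1 (120).

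**Figure D1:**
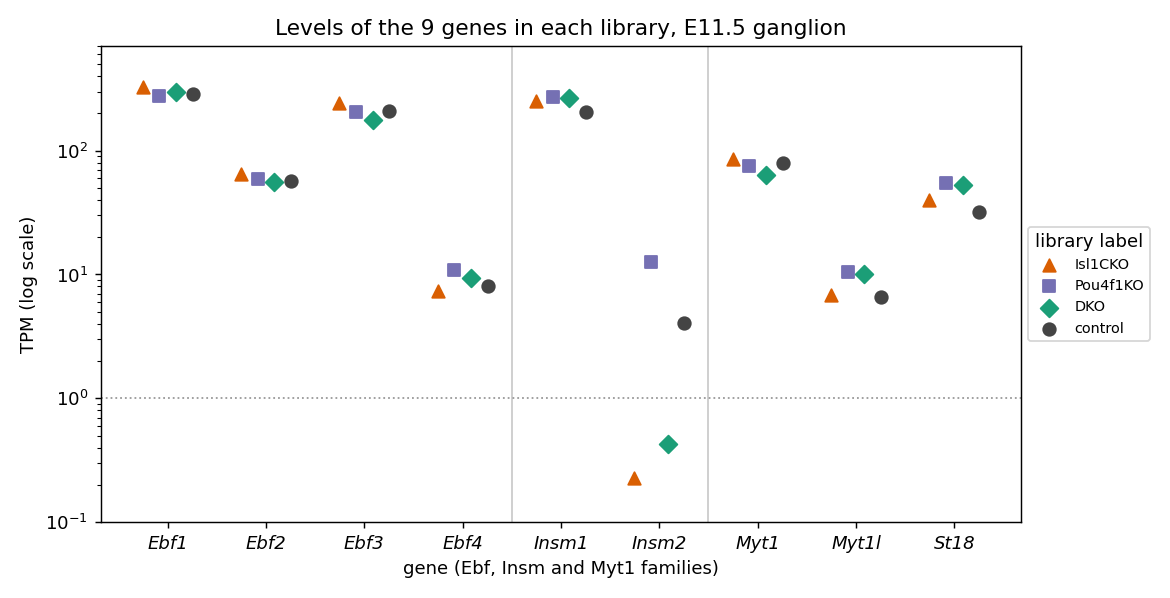
TPM (log axis) of the 9 genes in the 4 libraries, 1 point per gene and library, with the dotted line at 1 TPM. The points of 8 genes lie close together, while Insm2 runs between 0.228 and 12.6 TPM and is below the line in the libraries labelled Isl1CKO and DKO.

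Insm2 (mm10 chromosome 12, 55598917 to 55602017, plus strand, ENSMUSG00000045440.4) is a gene of 1 exon in GENCODE M21, known in mouse from endocrine and neural tissue. Its level was 18.0-fold lower in TPM in the library labelled Isl1CKO than in control, with a log2 ratio of (TPM + 1) of −2.05. In Pou4f1KO it was 3.09-fold higher than in control (log2 ratio 1.42). The library labelled DKO had 9.54-fold less than control (−1.83) and 29.5-fold less than Pou4f1KO (−3.26). It differed little from the library labelled Isl1CKO (0.22). The ratio ranked 4th from the lowest of 15049 genes for the library labelled Isl1CKO against control and also 4th for the library labelled DKO against Pou4f1KO. These are 2 pairs that share no library. The scale with 1 TPM added understates such low levels: with 0.1 TPM added, the ratios to control were −3.68 in the library labelled Isl1CKO and −2.99 in the library labelled DKO, and on FPKM + 1 they were −1.19 and −1.09.

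The depth behind these values differed as much as the values. Mean coverage over the Insm2 row was 1.13 in the library labelled Isl1CKO, 73.0 in Pou4f1KO, 2.50 in the library labelled DKO and 24.3 in control. Over the 3101 bases of the row this makes 3496, 226403, 7743 and 75222 aligned bases in the same order of libraries. The tables give no read counts, so no counting interval can be set on them. No other row overlaps Insm2. Its neighbour Ralgapa1, on the opposite strand, had the same order of libraries with far smaller differences, with log2 ratios to control of −0.22, 0.15 and −0.13 in the libraries labelled Isl1CKO, Pou4f1KO and DKO. Nfkbia, the neighbour on the other side with a measurable level, had ratios of −0.03, −0.01 and 0.31.

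Upstream sequences are shown for Insm2, because it carries the difference, for Myt1l, a gene higher in both libraries with the Pou4f1 label, and for Ebf1, a gene that hardly differed. They are the 250 bases before the RefSeq start that matches the start of the gene's row (GRCm38.p6, plus strand), at chr12:55598667-55598916 for Insm2, chr12:29528134-29528383 for Myt1l and chr11:44617850-44618099 for Ebf1. Myt1l and Ebf1 have further RefSeq starts, which are not shown and not in the match counts below. TAAT occurred 1 to 7 times in those windows of Myt1l and 0 times in that of Ebf1. Capitals mark TAAT on either strand, the core of many homeodomain sites.
Insm2: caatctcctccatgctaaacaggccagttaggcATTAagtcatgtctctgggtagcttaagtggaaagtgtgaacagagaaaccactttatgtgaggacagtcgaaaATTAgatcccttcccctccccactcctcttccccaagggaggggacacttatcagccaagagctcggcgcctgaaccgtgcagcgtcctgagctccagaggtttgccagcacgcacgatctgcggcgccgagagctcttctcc
Myt1l: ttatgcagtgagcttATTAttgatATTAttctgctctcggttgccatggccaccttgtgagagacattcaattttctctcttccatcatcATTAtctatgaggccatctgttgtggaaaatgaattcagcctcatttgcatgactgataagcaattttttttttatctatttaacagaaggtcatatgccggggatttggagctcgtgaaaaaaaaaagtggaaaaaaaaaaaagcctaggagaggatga
Ebf1: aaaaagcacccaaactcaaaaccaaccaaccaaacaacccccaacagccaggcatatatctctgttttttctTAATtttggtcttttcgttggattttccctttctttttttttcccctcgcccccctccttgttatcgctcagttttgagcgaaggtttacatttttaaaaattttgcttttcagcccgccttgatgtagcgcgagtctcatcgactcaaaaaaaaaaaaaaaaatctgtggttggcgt
TAAT occurred 2 times upstream of Insm2, 3 times upstream of Myt1l and 1 time upstream of Ebf1, and 54.9% of all 32841 such windows hold it at least once. Of the other members with a window at their row start, Myt1 had 1 match and Ebf3 and Ebf4 had 0. The E-box CAGCTG (13.0% of windows) had no match in these 3 windows, nor had an EBF palindrome (0.780%) and a BRN3-type element that contains TAAT (0.177%). The E-box CATCTG (14.4% of windows) occurred once upstream of Myt1l. Both strands were searched. Among the members, 6 of 9 had a RefSeq window at the start of their row; Ebf2, Insm1 and St18 had none.

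By the profile over the 4 libraries, the genes most like Insm2 among 11614 candidates were Aldh1a1, Robo3 and Gata3. The measure was the root mean square difference of log2(TPM + 1) values centred on each gene's mean, which was 0.34, 0.42 and 0.42. Aldh1a1, a retinaldehyde dehydrogenase, stood at 0.200 TPM in the library labelled Isl1CKO, 6.88 TPM in Pou4f1KO, 0.104 TPM in the library labelled DKO and 1.74 TPM in control. Robo3, an axon guidance receptor, stood at 1.43, 12.2, 1.001 and 4.12 TPM in the same libraries. Gata3, a zinc-finger factor of cochlear neurons, stood at 7.39, 49.9, 9.43 and 38.5 TPM. All 3 were lower in both libraries with the Isl1 label than in both without it. As they were picked for their likeness to Insm2, this follows from the choice and adds no support to its pattern. Aldh1a1 was below 1 TPM in both libraries with the Isl1 label.

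**Figure D2:**
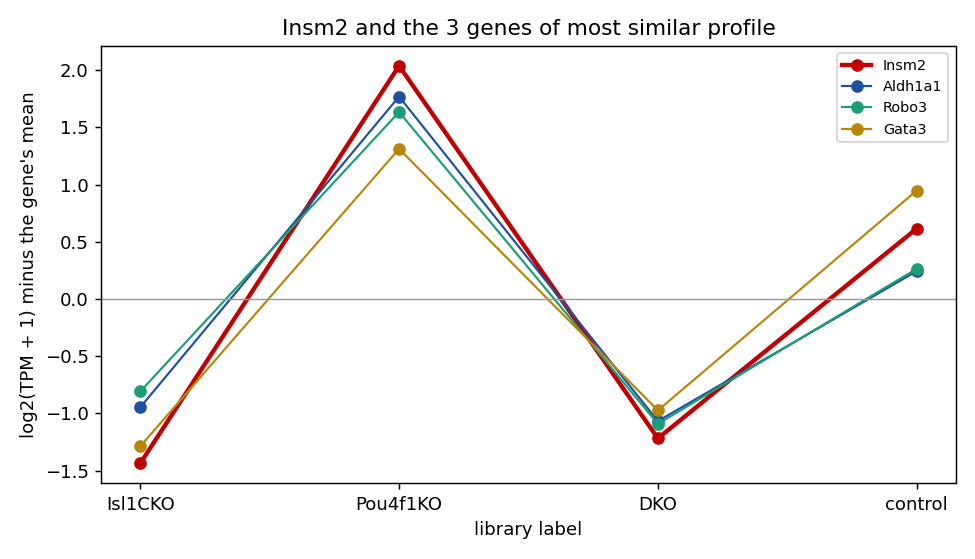
Log2(TPM + 1) of Insm2 and of the 3 genes of most similar profile, each minus its own mean over the 4 libraries (1 point per library). All 4 lines are below 0 in the libraries labelled Isl1CKO and DKO and above 0 in Pou4f1KO and control, the 3 genes having been chosen for this likeness.

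Hindbrain and Hox genes were higher in Pou4f1KO, the library where Insm2 was highest, while markers of otic epithelium and surface ectoderm were lower there. Of 30 hindbrain and neural tube factors, 25 reached 1 TPM in some library; 17 were at least 2-fold higher in Pou4f1KO than in control and 4 at least 2-fold lower (0.977% and 1.73% of all compared genes were). The list summed to 114 TPM in the library labelled Isl1CKO, 155 TPM in Pou4f1KO, 101 TPM in the library labelled DKO and 110 TPM in control. Pax7, Dbx1, Ptf1a, En1 and Gsx1 were at 0 in the library labelled Isl1CKO, Pax7 and En1 in the library labelled DKO, and Dbx2 in control. Of 15 Hox genes 11 were compared and 10 were higher in Pou4f1KO, and the Hox list summed to 36.3 TPM in the library labelled Isl1CKO, 103 TPM in Pou4f1KO, 42.7 TPM in the library labelled DKO and 35.5 TPM in control. Hoxa5 and Hoxb5 were at 0 in the library labelled Isl1CKO. Of the compared genes, 14 of 25 hindbrain and 8 of 11 Hox genes passed the 1 TPM filter through Pou4f1KO alone, so their counts are no measure of the lists as a whole. Against control, 2 hindbrain genes were at least 2-fold higher in the library labelled Isl1CKO, Lhx1 (log2 ratio 2.88) and Lhx2 (1.39), and 0 were lower. Of all compared genes, 0.585% were higher and 0.618% lower. The library labelled DKO had 4 higher, among them Sim1 (2.62), Lhx1 (2.30) and Lhx2 (1.86), and 4 lower (1.01% and 2.34% of all compared genes were). Of 18 otic epithelium markers, 12 were lower and 1 was higher in Pou4f1KO (median −1.35). In the library labelled DKO 9 of them were lower, where 2.34% of all compared genes were. Of 5 compared surface ectoderm markers, 4 were lower in Pou4f1KO, and the list of 10 summed to 113 TPM in the library labelled Isl1CKO, 40.4 TPM in Pou4f1KO, 44.1 TPM in the library labelled DKO and 182 TPM in control. Mesenchyme markers summed to 261, 323, 452 and 407 TPM in the same libraries, and no marker of these last 3 lists was at 0. The part of other tissue in the Insm2 values was not tested.

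Insm1 (chromosome 2, 146221997 to 146225018, plus strand), the paralog found in most newborn neurons, did not show the pattern of Insm2. It stood at 252 TPM in the library labelled Isl1CKO, 273 TPM in Pou4f1KO, 267 TPM in the library labelled DKO and 205 TPM in control. All 3 mutant libraries were above control, by log2 ratios of 0.30, 0.41 and 0.38, and none reached 1.5-fold. Scaled to equal pan-neuronal genes, these became 0.16, 0.15 and 0.32. Insm2 made up 0.0903% of the summed Insm level in the library labelled Isl1CKO, 4.43% in Pou4f1KO, 0.160% in the library labelled DKO and 1.96% in control.

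The Ebf genes were the most abundant family, and none differed by 1.5-fold in TPM between any libraries. Ebf1 (chromosome 11, 44618100 to 45008096, plus strand), known from B cells and sensory neurons, had the highest TPM of the 9 genes in every library. In Pou4f1KO, Insm1 was close to it at 273 TPM, and by mean coverage Insm1 stood above Ebf1 there (1575 against 1482). Without replicates these genes cannot be ranked in that library. The level of Ebf1 was 325 TPM in the library labelled Isl1CKO, 277 TPM in Pou4f1KO, 298 TPM in the library labelled DKO and 285 TPM in control. Ebf2 (chromosome 14, 67233292 to 67430952, plus strand), known from cerebellar and peripheral nerve development, stood at 64.8, 59.0, 55.4 and 56.6 TPM in the same libraries. The lowest and highest libraries of both genes differed by a factor of 1.17, and which one lies higher cannot be judged without replicates.

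Ebf3 (chromosome 7, 137193671 to 137314445, minus strand), a factor of olfactory and spinal neurons, was highest in the library labelled Isl1CKO and lowest in the library labelled DKO. It stood at 241 TPM in the library labelled Isl1CKO, 206 TPM in Pou4f1KO, 176 TPM in the library labelled DKO and 209 TPM in control. Its log2 ratio was −0.45 for the library labelled DKO against the library labelled Isl1CKO, and −0.25 for the library labelled DKO against control. Ebf4 (chromosome 2, 130295939 to 130370481, plus strand), the least studied paralog, was far weaker, at 7.42, 10.8, 9.35 and 8.10 TPM in the libraries labelled Isl1CKO, Pou4f1KO, DKO and control. The log2 ratio of Ebf4 was −0.11 for the library labelled Isl1CKO and 0.38 for Pou4f1KO, each against control. Summed, the Ebf genes came to 638 TPM in the library labelled Isl1CKO, 553 TPM in Pou4f1KO, 539 TPM in the library labelled DKO and 559 TPM in control. Ebf3 made up 37.8%, 37.3%, 32.6% and 37.4% of this sum, and Ebf1 50.9%, 50.1%, 55.4% and 51.0%. The rows that overlap Ebf2 and Ebf3 were at most at 0.251 TPM.

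Within the Myt1 family, the shares of the genes differed between libraries with and without the Pou4f1 label. St18 (chromosome 1, 6487231 to 6860940, plus strand), also called Myt3, stood at 39.8 TPM in the library labelled Isl1CKO, 54.9 TPM in Pou4f1KO, 53.0 TPM in the library labelled DKO and 32.2 TPM in control. Both libraries with the Pou4f1 label were above both without it. In Pou4f1KO it was 1.70-fold higher in TPM than in control (log2 ratio 0.75), and in the library labelled DKO 1.64-fold higher (0.70). These are the 305th and 380th highest ratios of 15049 genes. Myt1l (chromosome 12, 29528384 to 29923209, plus strand), a neuron-specific factor used to turn fibroblasts into neurons, had the same order at a lower level. It stood at 6.86 TPM in the library labelled Isl1CKO, 10.5 TPM in Pou4f1KO, 10.2 TPM in the library labelled DKO and 6.54 TPM in control. The log2 ratios of Myt1l were 0.61 for Pou4f1KO and 0.57 for the library labelled DKO, each against control. The hindbrain list summed to 155 TPM in Pou4f1KO, 101 TPM in the library labelled DKO and 110 TPM in control, and the part of such tissue in the St18 and Myt1l values was not tested.

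Myt1 (chromosome 2, 181763332 to 181827775, plus strand), the founding member, known in frog embryos to promote the choice of neuronal fate, did not share this order. It stood at 86.2 TPM in the library labelled Isl1CKO, 75.0 TPM in Pou4f1KO, 63.0 TPM in the library labelled DKO and 79.5 TPM in control. Both libraries with the Pou4f1 label were below both without it, with log2 ratios to control of −0.08 in Pou4f1KO and −0.33 in the library labelled DKO. Whether Myt1 lies lower in Pou4f1KO than in control cannot be judged from so small a ratio without replicates. Of the 3 genes, St18 made up 29.9% of the summed level in the library labelled Isl1CKO, 39.1% in Pou4f1KO, 42.0% in the library labelled DKO and 27.2% in control. The share of Myt1 was 64.9%, 53.4%, 49.9% and 67.2% in the same libraries. These shares hold for TPM alone. Mean coverage was 108, 110, 93.3 and 120 for Myt1, and 83.6, 135, 131 and 81.2 for St18, in that order of libraries. By coverage St18 was therefore above Myt1 in Pou4f1KO and in the library labelled DKO. The family sum was 133, 140, 126 and 118 TPM.

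**Figure D3:**
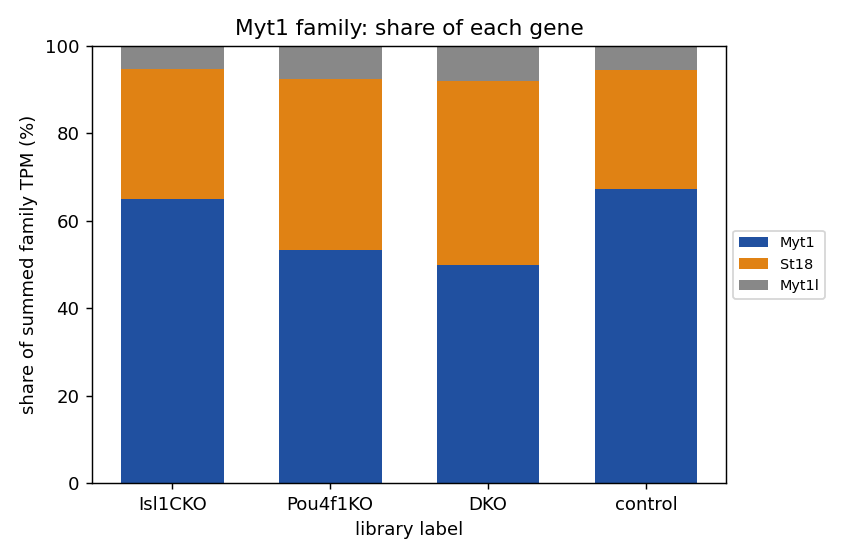
Share of the summed TPM of Myt1, St18 and Myt1l held by each gene, 1 stacked bar per library, from 0 to 100%. The St18 share is 39.1% in Pou4f1KO and 42.0% in the library labelled DKO, against 27.2% in control, and the Myt1 share is correspondingly smaller.

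Coverage and FPKM of these 3 genes did not stand in the library's usual ratio. GENCODE M21 lists 12 transcripts for Myt1, 11 for Myt1l and 13 for St18. The ratio of coverage to FPKM of their rows was 0.254 to 0.256, 0.176 to 0.181 and 0.425 to 0.426 of that usual ratio, against 0.886 to 1 for the other 6 genes. From coverage alone, an alternative chosen after the data were seen, the log2 ratio of Myt1l to control was 0.41 in Pou4f1KO and 0.39 in the library labelled DKO, and that of St18 0.73 and 0.68. Scaled to equal pan-neuronal genes, the ratios in Pou4f1KO were 0.37 for Myt1l and 0.49 for St18, both short of 1.5-fold, and on FPKM + 1 that of Myt1l was 0.48. The median log2 ratio of the 30 pan-neuronal genes themselves was 0.31 in Pou4f1KO and 0.14 in the library labelled DKO. The part of neuronal content in the St18 and Myt1l values was not tested.

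Counted over the 9 genes, Insm2 was the only one past 2-fold in any comparison. In the library labelled Isl1CKO against control, 1 of 9 was lower and 0 were higher, where 0.618% and 0.585% of all compared genes were. In Pou4f1KO against control, 1 was higher and 0 were lower, with a background of 0.977% and 1.73%. In the library labelled DKO against control, 1 was lower and 0 were higher, with a background of 2.34% and 1.01%. For the library labelled DKO against the library labelled Isl1CKO there was no member past 2-fold, with a background of 0.87% higher and 1.23% lower. Against Pou4f1KO, 1 member was lower in the library labelled DKO and 0 were higher, with a background of 1.12% and 0.645%. At 1.5-fold, 3 of 9 were higher in Pou4f1KO than in control (Insm2, Myt1l and St18; background 3.47%) and 1 in the library labelled DKO (St18; background 3.63%). The median log2 ratio to control of the 9 genes was 0.19 in the library labelled Isl1CKO, 0.38 in Pou4f1KO and 0.07 in the library labelled DKO, against −0.02, 0.02 and −0.01 over all compared genes. Scaled to equal pan-neuronal genes, which moved the median of all genes by −0.13, −0.24 and −0.06, the medians of the 9 genes were 0.05, 0.14 and 0.01.

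**Figure D4:**
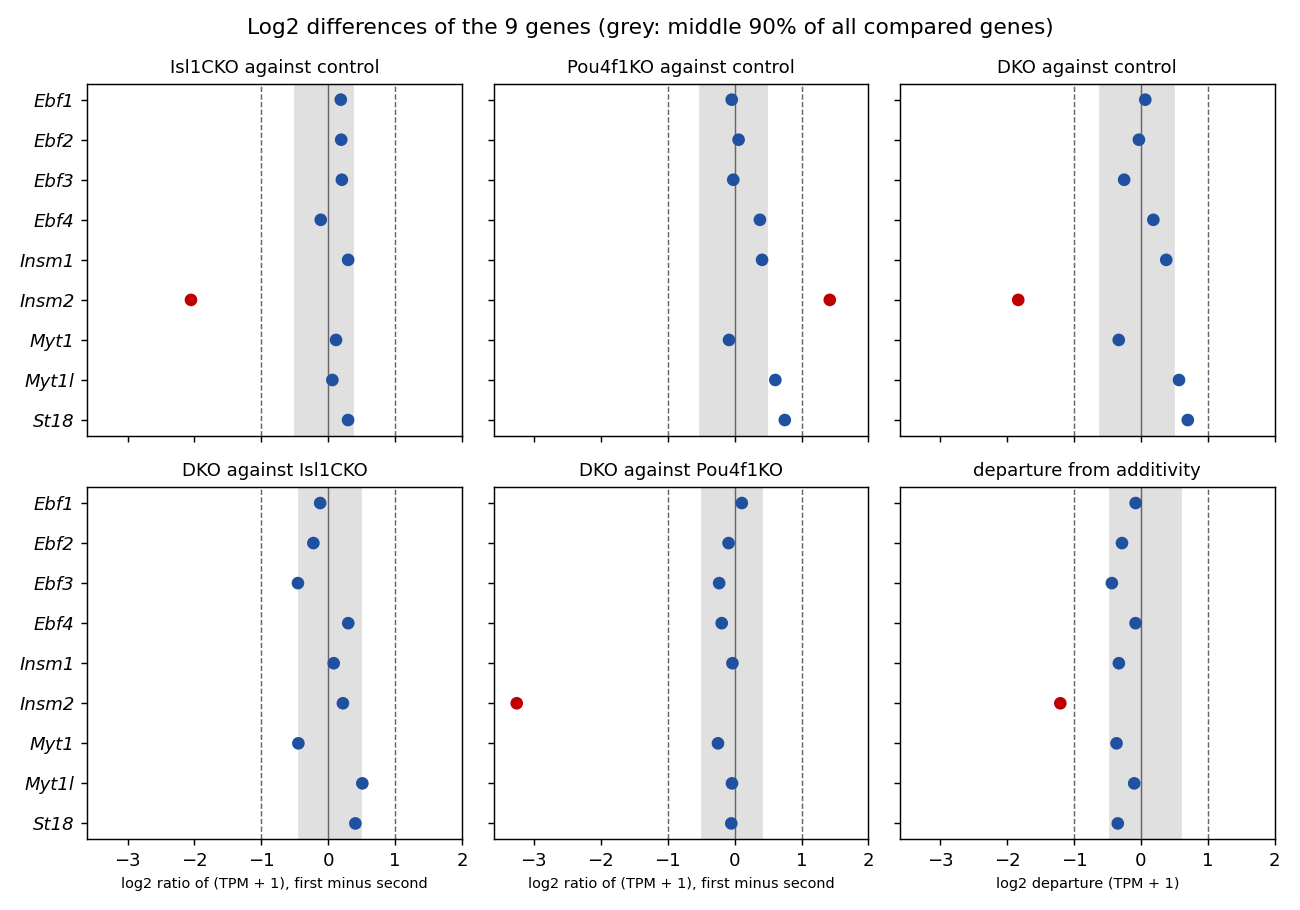
Log2 ratios of (TPM + 1), first library minus second, of the 9 genes in 5 comparisons, and the log2 departure from additivity; grey bands span the 5th to 95th percentile of all compared genes and dashed lines mark 2-fold. Insm2 (red where past 2-fold) lies at −2.05, 1.42 and −1.83 against control, and no other gene crosses a dashed line.

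The difference tied to each label was set side by side in the 2 backgrounds, in pairs that share no library. For the Isl1 label, Insm2 had a log2 ratio of −3.26 with the Pou4f1 label also present (DKO over Pou4f1KO) and −2.05 without it (Isl1CKO over control). Of the 9 genes 3, Ebf1, Ebf4 and Insm2, had the same sign in both pairs, and apart from Insm2 no ratio was larger than 0.30 in size. That count depends on the scale: it was 7 of 9 under pan-neuronal scaling and 6 of 9 on FPKM + 1. For the Pou4f1 label, 8 of 9 genes had the same sign with the Isl1 label present (DKO over Isl1CKO) and without it (Pou4f1KO over control). Sign agreement over all compared genes was not counted for either label, so neither count has a background beside it, and several ratios were close to 0. St18 had ratios of 0.40 and 0.75, Myt1l of 0.51 and 0.61, Ebf4 of 0.30 and 0.38, Insm1 of 0.08 and 0.41, and Myt1 of −0.45 and −0.08. Insm2 had ratios of 0.22 and 1.42.

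**Figure D5:**
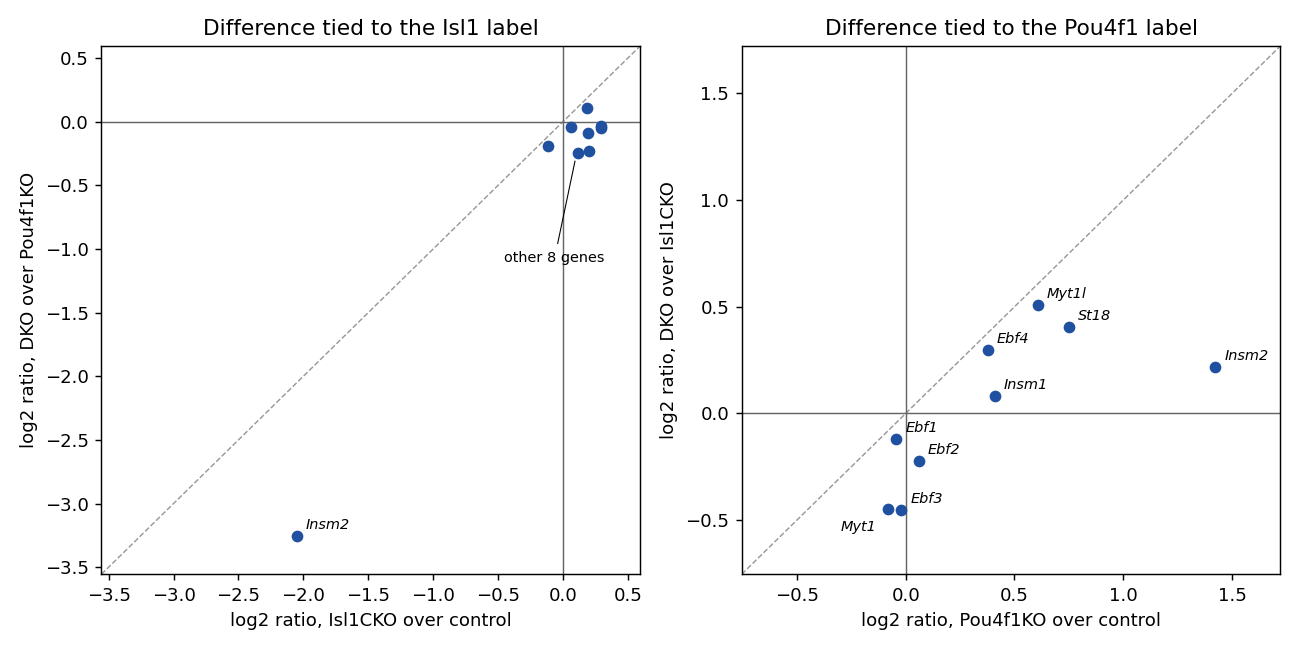
Log2 ratios of (TPM + 1) tied to the Isl1 label (left) and to the Pou4f1 label (right), with the ratio where the other label is also present on the y axis and the ratio where it is absent on the x axis; each point is 1 gene and the dashed line marks equal ratios. Insm2 lies at −2.05 and −3.26 on the left, away from the other 8 genes, and at 1.42 and 0.22 on the right.

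Adding both single log2 ratios to control and subtracting the sum from that of the library labelled DKO gives the departure from additivity, which was below 0 for all 9 genes. It ran from −1.20 for Insm2 to −0.08 for Ebf1, with a median of −0.33 against −0.01 over all compared genes. The share of all compared genes below 0 was not counted. Insm2 alone was past 2-fold (1 of 9 lower and 0 higher; background 1.11% and 1.41%), and it fell short with 0.1 TPM added (−0.92) and under pan-neuronal scaling (−0.95). The pan-neuronal genes had a median departure of −0.33 as well. Under pan-neuronal scaling the departures of Ebf1, Ebf2, Ebf4, Insm1 and Myt1l turned positive and the median of the 9 genes was 0.01.

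The factors that act before or with these genes were examined as lists. Among 12 neuronal bHLH factors, the class that includes the proneural genes, 6 stood 2-fold or more above control in Pou4f1KO and 0 below (0.977% and 1.73% of all compared genes did), with a median of 0.96. Among them were Atoh1 (log2 ratio 2.45), Neurog2 (2.20), Neurod2 (1.47), Neurod4 (1.19) and Neurod6 (1.14). Atoh1 and Neurog2 are among those that also stand on the hindbrain list. Of the 12 factors, 2 passed the 1 TPM filter through Pou4f1KO alone, Atoh1 among them. The count and the median in Pou4f1KO are therefore no measure of the list as a whole. In the library labelled DKO, Neurod2 (2.01) and Neurod6 (1.42) were higher and Neurog1 (−1.16), the factor that starts otic neurogenesis, was lower, with a median of 0.33 (1.01% of all compared genes were higher and 2.34% lower). Neurod2 (1.39) was also higher in the library labelled Isl1CKO, and so was Neurod4 (1.04), which stayed under 5 TPM and is named after its value was seen (0.585% of all compared genes were higher). Neurod2, a late differentiation factor, stood at 19.5, 20.6, 30.4 and 6.82 TPM in the libraries labelled Isl1CKO, Pou4f1KO, DKO and control. Under pan-neuronal scaling Neurod4 (0.99) and Neurod6 (0.90) fell short of 2-fold in Pou4f1KO, and Neurod4 (0.94) did so in the library labelled Isl1CKO.

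Of the 13 genes listed with the co-repressor partners of the INSM and MYT1 proteins, 0 were past 2-fold in any of the comparisons. Of all compared genes, 0.585% to 2.34% were past 2-fold in a given direction of a comparison. A count of 0 of 13 is near that share and sets the list apart from other genes in no way. Kdm1a, which encodes LSD1, stood at 215, 215, 211 and 201 TPM in the libraries labelled Isl1CKO, Pou4f1KO, DKO and control. Rcor2, a CoREST gene of the nervous system, stood at 312, 264, 280 and 268 TPM. Rest, which represses neuronal genes outside neurons, had the lowest ratios to control of the list, −0.62 in the library labelled Isl1CKO, −0.36 in Pou4f1KO and −0.40 in the library labelled DKO. The zinc-finger proteins that bind EBF, Zfp423 and Zfp521, had ratios to control of 0.26, 0.21 and 0.32, and of −0.10, −0.21 and −0.17.

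Among 20 Notch and progenitor genes are genes that MYT1 and MYT1L are known to repress. Of these 20, 0 were past 2-fold in the library labelled Isl1CKO against control. That is near the share of all compared genes, of which 0.585% were higher and 0.618% lower. The median of the 20 was −0.34, against −0.02 over all compared genes. Hes5, a Notch target, was the 1 gene past 2-fold in Pou4f1KO, at 21.1 TPM against 4.36 TPM in control (log2 ratio 2.04, where 0.977% of all compared genes were higher). Sox2, a progenitor factor, was the 1 gene past 2-fold in the library labelled DKO, at 31.6 TPM against 72.2 TPM in control (−1.17, where 2.34% of all compared genes were lower). Set against Pou4f1KO, 4 of the 20 were lower in the library labelled DKO (1.12% of all compared genes were). They were Hes5 (log2 ratio −2.43), Dll1 (−1.11), a Notch ligand, Sox3, at 0.536 TPM against 3.35 TPM in Pou4f1KO, and Sox2, at 31.6 TPM against 64.2 TPM. Sox2 only just passed 2-fold and lost it under 4 alternatives (−0.80 to −0.99). Hes1, a Notch target that MYT1 and MYT1L are known to repress, stood at 24.0, 29.2, 32.6 and 29.1 TPM in the libraries labelled Isl1CKO, Pou4f1KO, DKO and control. Otic epithelium markers, a progenitor-containing tissue, summed to 555, 462, 381 and 792 TPM in the same libraries. The hindbrain list summed to 114, 155, 101 and 110 TPM in these libraries, and Hes5 and Sox3 were likewise highest in Pou4f1KO. The part of otic epithelium or hindbrain tissue in the Hes5, Dll1, Sox3 and Sox2 values was not tested.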

How the data were processed

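Gene tables of 4 libraries were used, 1 per genotype. The authors deposited TPM, per the file headers, and it has 1 common total over all libraries. The deposited FPKM values differ from TPM by 1 factor per library, and the deposited coverage, a signal of mean read depth per base, carries no scaling between libraries, judged from the values. The submitters' processing notes name the build mm10 and the tools StringTie, HISAT2, SAMtools, Trimmomatic and FastQC. Versions, settings and annotation are not given in the sources used here.

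Rows sharing a symbol were summed. Genes reaching 1 TPM in some library (15049) were compared by log2 ratios of (TPM + 1), and a ratio of at least 1 in size (2-fold) was counted. Without replicates no test or p-value was computed, and depth (aligned gigabases) came from the ratio of coverage to FPKM. The calculation was tested on simulated data. Named genes were the 9 members, both targeted genes, members of the bHLH, co-repressor, EBF partner and Notch lists past 2-fold and up to 4 per comparison with the largest ratios, at 5 TPM or more in the higher library, up to 3 such genes of a list of another cell type, and the 3 genes most like any member spanning at least 1 on the log2 scale. The members and 16 other lists were chosen with earlier results of these data known. Kdm1a, Hes1, Neurod4 (Isl1CKO), Sox3, the otic neuron markers and markers at 0 are named outside this rule, after their values were seen, and 1 list gene is not reported here. Alternatives changed the unit, pseudocount, filter, scaling and threshold. Exons came from GENCODE M21 and upstream sequences from RefSeq (GRCm38.p6). Python 3.11.15 with pandas 2.3.3 and NumPy 2.4.6 was used.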

Additional observations from a re-analysis of the deposited data

Results flagged for a closer look

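For 6 genes the difference tied to the Isl1 label had opposite signs in the 2 backgrounds, each of 1 pair of libraries, so the contrast was not tested. The ratio with the Pou4f1 label present and without it was −0.23 and 0.20 for Ebf3, a difference of −0.43; −0.25 and 0.12 for Myt1 (−0.36); and −0.05 and 0.30 for St18 (−0.35). It was −0.03 and 0.30 for Insm1 (−0.33), −0.09 and 0.19 for Ebf2 (−0.28), and −0.04 and 0.06 for Myt1l (−0.10). For the Pou4f1 label, Ebf2 had opposite signs, −0.22 with the Isl1 label present and 0.06 without it (−0.28). All these ratios lie within 1.5-fold. Under pan-neuronal scaling only Ebf3 and Myt1l of these genes kept opposite signs for the Isl1 label, and none did for the Pou4f1 label; on FPKM + 1, Ebf2, Ebf3 and Myt1 kept them for the Isl1 label.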

How the results depend on the processing

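No paired analysis was possible because each genotype has 1 library, and for the same reason no library could be left out. The sign and the side of the 2-fold line of Insm2 in each comparison to control, and against Pou4f1KO, held under all 9 alternatives. Not all of these could move it. Changed filters and the 1.5-fold line leave a ratio as it is, and the coverage of Insm2 stood in the usual ratio to FPKM. The departure from additivity of Insm2 did not hold, with 0 members lower at a pseudocount of 0.1 and 0 under pan-neuronal scaling. At 1.5-fold, 3 members were higher in Pou4f1KO and 1 in the library labelled DKO. Pan-neuronal scaling also turned the sign of the small ratios to control of Myt1 and Myt1l in the library labelled Isl1CKO and of Ebf2 in Pou4f1KO. For the library labelled DKO against Pou4f1KO it turned those of Ebf2, Insm1, Myt1l and St18, the last 3 also on FPKM.

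Counts over all compared genes, higher and lower, were 88 and 93 for the library labelled Isl1CKO against control, 147 and 260 for Pou4f1KO, 152 and 352 for the library labelled DKO, 131 and 185 for DKO against Isl1CKO, 97 and 168 for DKO against Pou4f1KO, and 212 and 167 for the departure. In the same order, FPKM + 1 gave 36 and 25, 71 and 138, 75 and 186, 32 and 101, 42 and 69, and 82 and 65. A pseudocount of 0.1 gave 220 and 287, 323 and 469, 343 and 605, 343 and 387, 247 and 369, and 505 and 358. A 1.5-fold line gave 323 and 491, 522 and 634, 547 and 795, 522 and 497, 367 and 554, and 789 and 503. A filter at 5 TPM gave 52 and 51, 88 and 167, 93 higher, 76 higher, 51 and 97, and 102 and 69. Pan-neuronal scaling gave 68 higher and 137 lower for the library labelled Isl1CKO, 103 higher and 393 lower for Pou4f1KO, 134 higher and 117 lower for DKO against Pou4f1KO, and 474 higher and 119 lower for the departure. Counts stayed within 1.5 times under median-of-ratios scaling, no filter, removal of haemoglobin, ribosomal protein, mitochondrial and short structural RNA genes, and coverage, the last chosen after seeing the data. Read counts and replicates are lacking, so no error can be set on a ratio.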
